A study of Mus musculus with 16 samples.

Results

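The chromatin accessibility of the loci of 47 genes of the Wnt pathway was followed in tumour cells of mouse pancreatic ductal adenocarcinoma growing in the pancreas, the liver or the lungs. The genes code for 18 Wnt ligands, 12 receptors and co-receptors, 8 secreted inhibitors, 4 nuclear factors and 5 members of the feedback and R-spondin arm. A peak of open chromatin was taken as a member when the nearest start site of a protein-coding gene lay within 100 kb of its midpoint and belonged to one of these genes. This gave 505 of the 136630 nuclear peaks of the series, at 46 of the 47 genes. No peak was assigned to Dkk1.

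ATAC-seq, in which a transposase cuts and tags open DNA, was run on cells sorted for mKate2 from each of 16 tumours, each from its own mouse. Every tumour came from KC-shSmad4 lines, made from mice in which Ptf1a-Cre, expressed in the pancreatic epithelium, had switched on a reverse tetracycline transactivator linked to the red protein mKate2, and which carried at Col1a1 a doxycycline-inducible short hairpin against Smad4 linked to GFP. The lines also carried firefly luciferase, and which line gave which tumour is not stated. Cells were placed in female nude mice (Foxn1nu) 6 to 8 weeks old, hosts that lack T cells, by injection into the pancreas, into the spleen for liver metastases (the spleen was then removed) or into the tail vein for lung metastases. Tumours kept on doxycycline had Smad4 off, and tumours from which the drug was withdrawn for 14 days had Smad4 restored (on). The withdrawal began 4 weeks after injection for the pancreas, 5 weeks for the liver and 6 weeks for the lungs, so that organ, route and time of growth cannot be told apart. The groups were Smad4-off and Smad4-on pancreas tumours (3 mice each), liver metastases (2 mice each) and lung metastases (3 mice each).

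Wnt ligands bind Frizzled receptors together with the co-receptors Lrp5 or Lrp6 and stabilise beta-catenin, which works with Tcf and Lef proteins at target genes. Most Dkk proteins act on Lrp5 and Lrp6, and Sfrp proteins bind ligands. The ubiquitin ligases Rnf43 and Znrf3 remove Frizzled receptors from the cell surface unless R-spondins, acting through Lgr4 and Lgr5, hold them back. Axin2 is a negative regulator and a target of the pathway, and RNF43 is mutated in a share of human pancreatic cancers.

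The 16 samples held 23 to 38.2 M reads in peaks, and a member peak held a median of 39 to 84 reads per sample. Every member peak was tested, since no filter on low values was used. Replicates of a group differed by more than sampling noise (chi-square per degree of freedom 3.68 to 20.3), and none was counted as a repeat of another. Start-site peaks were present for all 10 markers of the tumour epithelium, with summed normalised counts of 21200 to 62058 per sample. For hepatocytes only Ttr of 6 markers had such a peak (at most 242 normalised counts), and for lung epithelium only Ager of 5 (at most 59.9). The markers Alb, Sftpc, Ptprc and Cd3e had none, while fibroblast markers summed to 1470 to 4619 over 5 of 6 genes, endothelial markers to 74.1 to 856 over all 4 and immune markers to 215 to 796 over Csf1r and Cd68. The samples are bulk, so that fewer cells of a type and less accessibility per cell cannot be told apart. Smad4-off lung replicate 1 stood apart on chromosome 6, where the 2411 peaks between 124 and 150 Mb lay a median of 1.85 above their mean over all samples on the log2 scale, against -0.61 to 0.44 in the other samples. All 21 Lrp6 peaks lie there, and some of the counts at Lrp6 that rest on this sample are also given without it.

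A member peak had a median width of 621 bp and a median GC content of 48.7%, against 589 bp and 45.8% over all nuclear peaks. Of the 505, 43 lay within 1 kb of a start site, 12 in exons, 235 in introns and 215 between genes. Tcf7l2 held the most (52), followed by Wnt7b (27), Dkk2 (26), Axin2 (25), Wnt11 (24) and Lrp6 (21), while Fzd3, Fzd8 and Dkk4 held 1 each. Some peaks assigned to a member lay inside another gene, among them 14 of 18 at Fzd5 (12 of these in Plekhm3), 10 of 15 at Wnt16, all in Cped1, and 7 of 16 at Wnt5a, all in Erc2. The nearest start site does not show which gene a region acts on.

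The following windows show the central 300 bases (mm10, RefSeq GRCm38.p6 sequence, plus strand) of 6 peaks on which the results turn. The Wnt7b and Fzd2 windows lie at peaks that were far more open in liver than in lung metastases, and the Dkk3 and Wnt5a windows at peaks that were far less open there. The Dkk2 and Wnt5b windows lie at peaks that rose and fell on Smad4 restoration averaged over organs. Capitals mark matches to 7 motifs searched on both strands, so that a match on the minus strand appears as its reverse complement: TCF/LEF CTTTGAT, SMAD CAGACA, AP-1 TGANTCA, KLF GGGNGTG, RUNX TGTGGTT, HNF4 CAAAGTCCA and the longer HNF1 motif, none of which contains another.
Wnt7b chr15:85629985-85630284: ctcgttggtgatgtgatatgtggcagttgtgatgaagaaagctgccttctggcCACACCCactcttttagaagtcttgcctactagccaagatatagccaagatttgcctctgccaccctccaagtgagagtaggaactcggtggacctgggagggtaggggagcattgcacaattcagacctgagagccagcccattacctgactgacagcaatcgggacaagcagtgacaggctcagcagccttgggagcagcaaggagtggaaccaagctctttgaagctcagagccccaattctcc
Fzd2 chr11:102613718-102614017: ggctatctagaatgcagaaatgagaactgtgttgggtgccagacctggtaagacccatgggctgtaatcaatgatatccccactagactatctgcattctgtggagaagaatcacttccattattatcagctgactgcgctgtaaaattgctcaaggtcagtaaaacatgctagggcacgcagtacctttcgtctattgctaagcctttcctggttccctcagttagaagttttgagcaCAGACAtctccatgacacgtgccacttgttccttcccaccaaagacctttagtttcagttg
Dkk3 chr7:112123009-112123308: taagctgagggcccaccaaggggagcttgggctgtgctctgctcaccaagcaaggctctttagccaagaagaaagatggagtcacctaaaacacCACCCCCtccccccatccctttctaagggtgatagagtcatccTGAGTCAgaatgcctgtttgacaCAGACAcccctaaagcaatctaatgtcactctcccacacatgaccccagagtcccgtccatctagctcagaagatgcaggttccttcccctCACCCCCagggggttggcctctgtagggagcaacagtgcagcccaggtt
Wnt5a chr14:28427660-28427959: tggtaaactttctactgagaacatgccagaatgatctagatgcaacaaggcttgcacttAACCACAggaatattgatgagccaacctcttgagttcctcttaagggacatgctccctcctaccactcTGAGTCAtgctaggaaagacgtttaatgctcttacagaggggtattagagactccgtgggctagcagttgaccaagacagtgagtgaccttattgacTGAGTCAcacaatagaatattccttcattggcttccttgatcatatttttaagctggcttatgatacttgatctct
Dkk2 chr3:132122315-132122614: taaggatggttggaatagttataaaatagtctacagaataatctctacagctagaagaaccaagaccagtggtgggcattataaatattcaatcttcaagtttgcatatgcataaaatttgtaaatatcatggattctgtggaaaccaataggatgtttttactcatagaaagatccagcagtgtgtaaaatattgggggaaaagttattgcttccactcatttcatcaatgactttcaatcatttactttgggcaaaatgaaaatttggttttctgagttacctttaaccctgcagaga
Wnt5b chr6:119535860-119536159: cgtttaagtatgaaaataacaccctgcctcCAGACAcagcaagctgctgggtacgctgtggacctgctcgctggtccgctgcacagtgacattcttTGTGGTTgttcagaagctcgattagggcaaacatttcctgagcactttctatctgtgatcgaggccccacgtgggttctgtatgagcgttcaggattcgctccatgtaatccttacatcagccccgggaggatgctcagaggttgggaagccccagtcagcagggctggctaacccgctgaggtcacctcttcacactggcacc
The Wnt7b window held 1 KLF match and the Fzd2 window 1 SMAD match. The Dkk3 window held KLF matches at 95 and 252, an AP-1 match at 138 and a SMAD match at 161, counted from its first base. In the Wnt5a window there was a RUNX match at 60 and AP-1 matches at 128 and 225. The Wnt5b window held a SMAD match at 31 and a RUNX match at 97, and the Dkk2 window held none of the 7 motifs. A match describes letters and not a bound site.

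Over all 505 member windows the TCF/LEF letters were found in 6.14%, against 5.07% of all peaks, and the SMAD letters in 30.5%, against 26.1%. AP-1 letters were found in 28.3% of member windows (34.1% of all), KLF in 24% (21.5%), RUNX in 10.1% (10.9%), HNF4 in 0.396% (1.04%) and HNF1 in 0.198% (0.116%). The 110 member peaks more open in Smad4-off liver than lung metastases held AP-1 letters in 22.7%, KLF letters in 29.1% and RUNX letters in 2.73%. The 143 that were less open held them in 42.7%, 17.5% and 13.3%. The same split over all peaks called in that comparison was 20% against 53.3% for AP-1, 26.4% against 17.6% for KLF and 7.79% against 14.3% for RUNX. The member peaks thus leaned the same way as the series as a whole.

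The first question was whether Wnt loci are open to different degrees in liver and lung metastases while Smad4 is off. A peak or locus was called where the log2 difference was at least 0.58 in size with an adjusted p of at most 0.1 (limma, over all 136630 peaks or all 17794 gene loci). Of the 505 member peaks 253 were called, 110 more open and 143 less open in the liver, which is 50.1% of the members against 49.7% of all peaks (22.9% more open and 26.8% less open). Their median log2 difference was -0.14, against 0.00 over all peaks. As a class, Wnt loci were therefore called about as often as the rest of the genome, and the differences lay between genes.

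When the normalised counts of all peaks of a gene were added up into a locus total, 17 of 46 loci were called, 10 higher and 7 lower in the liver, against 32.2% of all loci (20.4% higher and 11.8% lower). The plot of locus differences by role shows called loci in every class, in both directions in all but the receptors, where the 3 called loci were higher, and the nuclear factors, where the 1 called locus was lower.

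**Figure D1:**
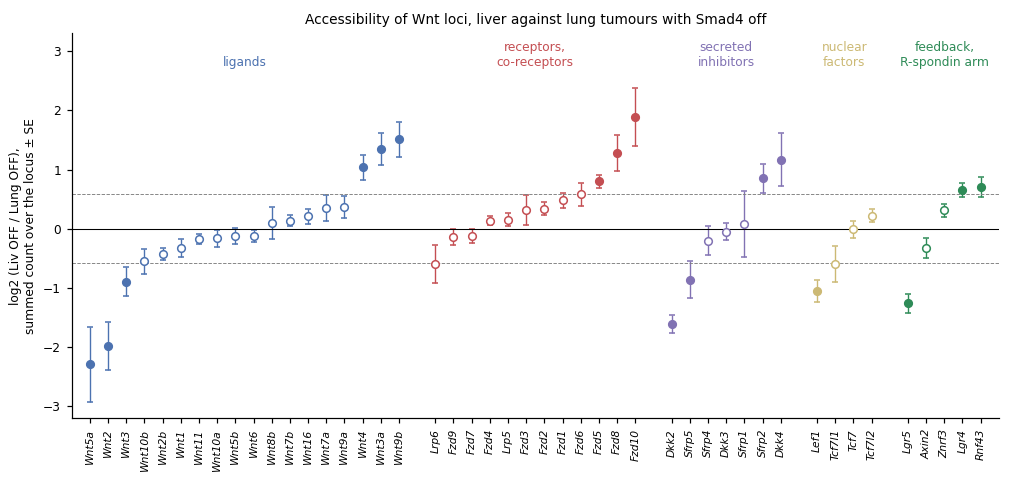
Log2 difference of the summed normalised count at each of 46 Wnt loci between Smad4-off liver and lung metastases (y axis, positive is higher in the liver), grouped by role (x axis), with bars of 1 SE. Filled points were called, open points were not, and dashed lines mark the threshold of 0.58. Wnt5a, Wnt2 and Dkk2 lie lowest and Fzd10, Wnt9b and Wnt3a highest.

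Among the ligands, Wnt4, which signals in epithelial development, was higher in the liver at every peak that was called. Its locus total was 8116 and 8949 in the 2 Smad4-off livers, and 2852, 5112 and 4856 in the 3 lungs. Pancreas tumours held 3522, 3808 and 3195. The liver values lay above all others, with a log2 difference from the lungs of 1.04 ± 0.21 (SE, adjusted p = 0.00103), and 9 of the 16 Wnt4 peaks were called higher and 0 lower. Its start-site peak (chr4:137276040-137279884, 473 bp downstream of the start to the peak midpoint) held 2210 and 2206 in the liver against 587, 1371 and 1199 in the lungs.

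Wnt9b and Wnt3a were also higher in the liver, at low counts. Wnt9b totalled 147 and 183 in the liver and 43.1 to 68.5 in the lungs (log2 difference 1.51 ± 0.29, adjusted p = 0.000747). Wnt3a totalled 362 and 574 against 170 to 191 (1.35 ± 0.27, adjusted p = 0.000902). Within these loci an intronic Wnt9b peak (chr11:103737282-103737552) held 35.8 and 40.4 in the liver and 0, 6.52 and 0.862 in the lungs. An intronic Wnt3a peak (chr11:59284168-59284548) held 38.3 and 87.8 against 3.68, 4.35 and 1.72. At both peaks the liver samples lay above every lung and pancreas sample.

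Wnt5a, a ligand best known for signalling without beta-catenin, was the locus that was lower by the most. Its total was 289 and 176 in the 2 livers, 655, 1034 and 1996 in the lungs and 1635, 971 and 1240 in the pancreas. The liver values lay below all others (log2 difference from the lungs -2.29 ± 0.64, adjusted p = 0.00811), although the lung samples spread widely. Of its 16 peaks 13 were called lower and 0 higher, from the start-site peak, which held 2.47 and 1.39 against 2.76, 12 and 37, to the Erc2 intron peak whose window is printed above (chr14:28427577-28428044), which held 3.7 and 1.39 against 32.2, 25 and 109.

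Wnt2 and Wnt3, both activators of beta-catenin signalling, were also lower. Wnt2 totalled 105 and 145 in the liver and 656, 266 and 667 in the lungs (-1.98 ± 0.41, adjusted p = 0.0014). Most of this difference came from 1 peak 51.7 kb downstream (chr6:17978196-17979640), with 33.3 and 37.6 against 464, 154 and 374. Without the peaks beyond 50 kb the Wnt2 difference was -0.57 and was not called. The Wnt3 total was 183 and 199 against 488, 270 and 335 (-0.89 ± 0.24, adjusted p = 0.00542).

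No other ligand locus was called in total. The Wnt1 (-0.33, adjusted p = 0.0707), Wnt2b (-0.42, adjusted p = 0.00214) and Wnt10b (-0.55, adjusted p = 0.0341) totals were lower by less than the threshold. Wnt2b and Wnt8b (each 0 peaks higher and 3 lower), Wnt10a and Wnt10b (each 0 and 1) and Wnt9a (1 and 0) held calls in a single direction. Wnt6 held none, and the remaining ligand loci held called peaks in both directions. Wnt7b, a ligand that pancreatic cancer cells can produce, had 6 peaks higher and 2 lower of 27, with totals of 18787 and 18331 in the liver and 16404, 17077 and 17117 in the lungs. A Wnt7b peak between genes, 47.7 kb upstream (chr15:85629991-85630279), held 24.7 and 47.4 in the liver against 0.92, 0 and 0 in the lungs and 1.71 to 3.7 in the pancreas (adjusted p = 0.000204). At such counts the log2 difference depends on the pseudocount, and none is given. The sizes given for other peaks with few counts in a group depend on it too. Wnt11 had 3 higher and 6 lower of 24 peaks, Wnt16 had 3 and 3 of 15, and Wnt5b had 1 and 5 of 18. In all, ligands had 32 peaks called higher and 46 lower of 184, or 42.4%.

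Among receptors, Fzd5, a receptor for several Wnt ligands, was higher in the liver at 11 of its 18 peaks and lower at 0. The Fzd5 locus held 11006 and 10708 in the 2 livers, 5224, 7331 and 6383 in the lungs and 7418, 7355 and 7188 in the pancreas, a log2 difference from the lungs of 0.80 ± 0.11 (adjusted p = 0.000119). Its start-site peak (chr1:64734685-64739631) held 5440 and 5344 against 2968, 3694 and 3200. A peak 5.26 kb upstream (chr1:64742462-64743558) stood out with 310 and 336 in the liver against 22.1, 59.8 and 25 in the lungs. Fzd5 was thus open in every organ, and more open in the liver than in the lungs at its promoter and at distal regions alike. Against the pancreas the locus (0.57 ± 0.11) and the start-site peak (0.56 ± 0.09) stayed below the threshold and were not called. Of the 18 peaks 7 were called higher and 3 lower in the liver than in the pancreas.

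Fzd8 and Fzd10, the other receptor loci called, rest on 1 and 2 peaks. The Fzd8 promoter held 396 and 584 in the 2 livers, 259, 188 and 159 in the lungs and 597, 651 and 691 in the pancreas (liver against lungs 1.28 ± 0.30, adjusted p = 0.00258). Fzd10 totalled 102 and 189 against 30.4 to 46.7 (1.89 ± 0.49, adjusted p = 0.00467). A Fzd2 peak 9.47 kb downstream of the start (chr11:102613623-102614113) held 30.9 and 123 in the liver and 3.68, 2.17 and 2.58 in the lungs. Its log2 difference was 4.06 ± 0.72 (adjusted p = 0.000452), a size that depends on the pseudocount at such lung counts. The Fzd2 start-site peak held 1618 and 1615 against 1407, 1320 and 1452 and was not called.

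The co-receptors gave no called locus. Lrp5 had 3 peaks higher and 2 lower of 14. Lrp6 had 2 higher and 10 lower of 21, but its total was 9348 in Smad4-off lung replicate 1 against 4921 and 3181 in the other lungs, and without replicate 1 the count was 2 higher and 4 lower, with the median log2 difference of the 21 peaks going from -0.67 to -0.34.

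The secreted inhibitors had the lowest median of the 5 classes, a log2 difference of -1.05 over 61 peaks, with 9 higher and 32 lower (67.2% called). Most of these peaks belong to Dkk2 (26) and Dkk3 (17). Dkk2, an inhibitor that binds Lrp5 and Lrp6, totalled 727 and 653 in the 2 livers, 2054, 1700 and 2674 in the lungs and 2274, 2617 and 2472 in the pancreas. All liver values were below all others, with a log2 difference from the lungs of -1.61 ± 0.15 (adjusted p = 2.12e-05). Of the Dkk2 peaks 19 were called lower and 0 higher, including the start-site peak (chr3:132084990-132086333), which held 86.4 and 64.1 against 190, 185 and 302. The intronic peak with the largest difference (chr3:132105388-132105959) held 7.41 and 4.18 against 95.7, 34.8 and 69.8 (-3.25 ± 0.39, adjusted p = 3.64e-05).

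Dkk3, a divergent relative of the Dkk family, had 3 peaks higher and 8 lower, and its total was not called (2068 and 2421 in the liver, 2088, 2226 and 2680 in the lungs). Its intronic peak shown above (chr7:112123013-112123306) held 0 and 6.97 in the liver and 70.9, 23.9 and 44.8 in the lungs, while the peak nearest its start site held 55.5 and 30.7 against 108, 115 and 127. Sfrp5 was lower in total (44.4 and 36.2 against 60.9 to 96.7, -0.86 ± 0.31, adjusted p = 0.0254). Sfrp2 (294 and 336 against 139 to 214, 0.85 ± 0.24, adjusted p = 0.00728) and Dkk4 (1 peak, 122 and 78 against 34.1, 72.8 and 31.9, 1.17 ± 0.45, adjusted p = 0.0375) were higher. The inhibitors were therefore not of a single direction. The Dkk4 call was lost without Smad4-off liver replicate 1 (0.85) or Smad4-off lung replicate 1 or 3 (1.00 and 0.96), and the Sfrp5 call without Smad4-off liver replicate 2 (-0.72).

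Among the nuclear factors, Lef1 was lower in the liver, with totals of 296 and 270 against 645, 465 and 678 in the lungs (-1.05 ± 0.19, adjusted p = 0.000514) and 4 of 5 peaks called lower and 1 higher. The start-site peak of Lef1 (chr3:131110164-131110583) held 21 and 26.5 against 49.7, 39.1 and 58.6. Tcf7l2, a Tcf protein of many epithelia, had 17 of 52 peaks higher and 7 lower, with totals of 17385 and 16063 against 13667 to 14881, which was not called. Its annotated start site nearest a peak lay in a small peak that was not called (90.1 and 55.7 against 107, 70.6 and 79.3). Tcf7 and Tcf7l1 had 2 and 2 higher and 2 and 5 lower.

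In the feedback arm, Lgr5 was lower and Lgr4 and Rnf43 were higher. Lgr5, a stem cell marker and R-spondin receptor, totalled 571 and 485 in the liver against 1189, 1154 and 1458 in the lungs and 1324, 1539 and 1173 in the pancreas (liver against lungs -1.26 ± 0.16, adjusted p = 6.44e-05), with 5 of 7 peaks called lower and 0 higher. Lgr4, its close relative, totalled 2916 and 3334 against 1791, 2250 and 1917 (0.66 ± 0.12, adjusted p = 0.000533), with 6 of 8 peaks called higher and 0 lower. These R-spondin receptors thus differed in opposite directions. Rnf43 totalled 6767 and 6824 against 3727, 4765 and 4074 (0.71 ± 0.17, adjusted p = 0.00336), with 6 of 15 peaks higher and 1 lower. Znrf3, its homologue, had 5 higher and 5 lower of 16, and Axin2 had 1 higher and 9 lower of 25 while its promoter held 1218 and 1428 against 1197, 1337 and 1398. Under quantile normalisation the Fzd5, Rnf43 and Lgr4 differences became 0.50, 0.40 and 0.35 and were not called, and Lgr4 (0.56) was also not called without Smad4-off liver replicate 2.

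The summed start-site count of the tumour epithelial markers was itself higher in the Smad4-off livers (61941 and 62058, the lowest and highest) than in the lungs (28161 to 40829) or the pancreas (28024 to 30788). Not every marker followed the sum. Sox9 was lowest in the liver (means of 2951, 3053 in the lungs and 3155 in the pancreas), and Pdx1 was only slightly higher there (3253, 2759 and 2778). The fibroblast markers summed to 1548 to 1587 in the liver, 1756 to 2546 in the lungs and 2980 to 3597 in the pancreas, and the immune markers to 460 to 796, 291 to 420 and 222 to 291. The immune sum was nearly all Cd68 (means of 615, 351 and 241). Csf1r, the other immune marker with a peak, was lowest in the liver (12.8, 24.1 and 22.3). The endothelial markers summed to 94.7 to 100 in the liver, 240 to 856 in the lungs and 219 to 251 in the pancreas, and the start-site peak of the hepatocyte gene Ttr held 164 to 231, 52.5 to 96.7 and 79.4 to 96.5. These levels thus also differed between the Smad4-off livers and the other organs. Their relation to the Wnt loci was not computed, and their part in the result was not tested.

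**Figure D2:**
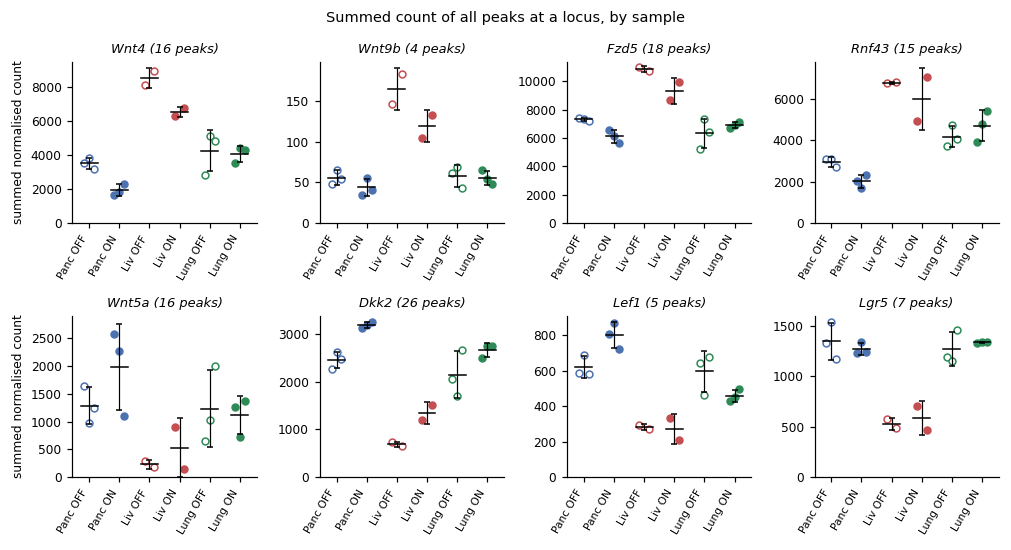
Summed normalised count of all peaks (y axis, linear) at 8 Wnt loci in each sample of the 6 groups (x axis). Open points are Smad4 off and filled points Smad4 on, with blue for the pancreas, red for the liver and green for the lungs, and black lines give the mean ± SD. Both Smad4-off livers lie above all other Smad4-off samples at Wnt4, Wnt9b, Fzd5 and Rnf43 and below them at Wnt5a, Dkk2, Lef1 and Lgr5.

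Peaks of a gene did not always move together, as the plot of differences by distance shows. At Wnt4 the called peaks lay from 75.2 kb upstream to 9.8 kb downstream of the start site, and 3 upstream peaks at 69.2 to 75.2 kb (log2 differences of 2.37 to 3.23) and an intronic peak (2.22) exceeded the promoter (1.16). Called Dkk2 peaks reached from 98 kb upstream to 61.9 kb downstream, and called Wnt5a peaks from 91.9 kb upstream to 76.1 kb downstream, all of a single sign. At Tcf7l2 called peaks of either sign lay side by side.

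**Figure D3:**
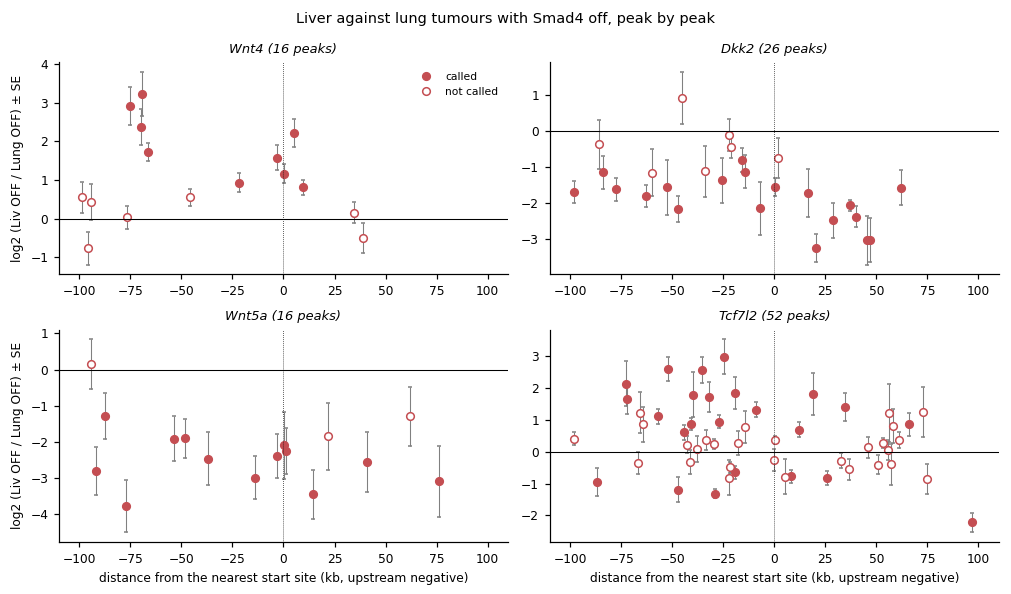
Log2 difference between Smad4-off liver and lung metastases (y axis, bars of 1 SE) for each peak of Wnt4 (16), Dkk2 (26), Wnt5a (16) and Tcf7l2 (52) against its distance from the nearest start site in kb (x axis, upstream negative). Filled points were called. All called peaks are above 0 at Wnt4 and below 0 at Dkk2 and Wnt5a, whereas Tcf7l2 has 17 above and 7 below.

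Against the pancreas the Smad4-off livers differed at 308 member peaks, 112 higher and 196 lower (61%, against 58.5% of all peaks, 26.2% higher and 32.3% lower). They differed at 18 loci (36.8% of all loci), 7 higher and 11 lower, or 15.2% and 23.9% of the member loci against 23.8% and 13% of all loci. This comparison uses the same liver samples as the one with the lungs, so the directions are not independent. Wnt4 (1.28 ± 0.21), Rnf43 (1.20 ± 0.17) and Lgr4 (0.62 ± 0.12) were again higher, and Dkk2 (-1.83 ± 0.15), Lgr5 (-1.34 ± 0.16), Lef1 (-1.12 ± 0.19) and Wnt5a (-2.47 ± 0.64) again lower. Loci lower here included Wnt10b (807 and 897 in the liver, 1650, 1999 and 1685 in the pancreas, -1.06 ± 0.21, adjusted p = 0.000679), Tcf7 (1048 and 1057 against 1483 to 1801, -0.68 ± 0.15) and Tcf7l1 (1102 and 1233 against 2398 to 3227, -1.19 ± 0.30). An intronic Lgr5 peak (chr10:115579112-115579633) where the antisense gene A930009A15Rik also lies, held 1.23 and 1.39 in the liver and 47, 50.9 and 55.6 in the pancreas (-4.49 ± 0.63, adjusted p = 4.83e-05), and in the lungs it held 6.44, 10.9 and 43.9. At such liver counts the size of the Lgr5 difference depends on the pseudocount.

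Lung metastases and pancreas tumours differed less with Smad4 off. Of the member peaks 102 were called, 23 higher and 79 lower in the lungs (20.2%, against 17.3% of all peaks, 6.59% higher and 10.7% lower), and 4 loci (5.74% of all loci). Of the 23 higher peaks 4 were at Lrp6, and their number without Smad4-off lung replicate 1 is not given. At 1 of them (chr6:134579531-134579825) the call was lost without Smad4-off lung replicate 1 (1.61) or 2 (2.26). It was also lost without Smad4-off pancreas replicate 2 (1.74) or 3 (2.64). Fzd8 was lower in the lungs (-1.70 ± 0.27, adjusted p = 0.00587), as were Wnt9a (756, 690 and 744 against 1366, 1590 and 1661, -1.07 ± 0.17, adjusted p = 0.00691) and Tcf7 (1134, 925 and 1125 against 1483, 1801 and 1796, -0.67 ± 0.14, adjusted p = 0.0176). Dkk4, a secreted inhibitor that is also a target of the pathway, was higher (34.1, 72.8 and 31.9 against 14.5, 8.04 and 9.26, 1.96 ± 0.40, adjusted p = 0.0189), so that the pancreas was lowest, the lungs intermediate and the liver highest, each step being called. At a Fzd2 peak 20.1 kb downstream (chr11:102624209-102624823) both metastatic sites lay below the pancreas, with 126, 175 and 174 in the pancreas, 10.1, 7.61 and 17.2 in the lungs and 25.9 and 30.7 in the liver. The count of peaks was 60 without Smad4-off pancreas replicate 2 and 58 without replicate 3, and the 4 loci became 2 without pancreas replicate 3, which ends the Dkk4 and Tcf7 calls, and 8 without Smad4-off lung replicate 3. The Tcf7 difference was -0.58 and not called without Smad4-off lung replicate 2.

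The differences between organs were measured again in the Smad4-on tumours, which share no sample with the Smad4-off tumours. Between liver and lungs 173 member peaks were called, 75 higher and 98 lower (35.8% of all peaks were called, 17.6% higher and 18.2% lower). Of the 110 peaks higher with Smad4 off, 68 were also called higher with Smad4 on, or 61.8% of the Smad4-off list and 90.7% of the Smad4-on list. Of the 143 lower peaks 79 were called lower again (55.2% and 80.6%), and 0 were called in the opposite direction. Over all peaks these shares were 67.5% and 87.9% for higher peaks and 56.9% and 83.8% for lower peaks.

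At the level of loci 17 were called between Smad4-on liver and lung metastases (20.8% of all loci), of which 13 had been called in the same direction with Smad4 off. These were Wnt3a, Wnt4, Wnt9b, Fzd8, Fzd10, Dkk4 and Sfrp2, higher in the liver, and Wnt2, Wnt5a, Dkk2, Sfrp5, Lef1 and Lgr5, lower. The share of repeated calls over all gene loci is not given, so the repeat is not shown to be particular to these loci. Dkk2 totalled 1188 and 1507 in the liver against 2503, 2757 and 2749 in the lungs (-0.99 ± 0.15, adjusted p = 0.000334), and Lgr5 700 and 463 against 1331, 1334 and 1341 (-1.23 ± 0.16, adjusted p = 0.000141). Wnt5a was 901 and 149 against 1253, 724 and 1376 (-1.55 ± 0.64, adjusted p = 0.0712), where the groups overlapped. Without Smad4-on liver replicate 2 the Wnt5a difference was -0.26, and 4 loci and 68 peaks were called, while without Smad4-on lung replicate 2 there were 11 loci.

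Between Smad4-on liver and pancreas 294 member peaks were called, 124 higher and 170 lower (59.4% of all peaks, 27.1% higher and 32.2% lower), and 18 loci (35.9% of all loci). Without Smad4-on liver replicate 2 the peaks numbered 192. With Smad4 on, Rnf43 held 4936 and 7070 in the liver against 2014, 1685 and 2335 in the pancreas (1.57 ± 0.17, adjusted p = 1.04e-05), and Wnt4 held 6334 and 6753 against 1647, 1843 and 2319 (1.77 ± 0.21, adjusted p = 1.85e-05). Lef1 held 331 and 211 against 807, 869 and 723 (-1.59 ± 0.19, adjusted p = 1.71e-05). Of the peaks called between Smad4-off liver and pancreas, 104 of 112 higher (92.9%, against 86.6% over all peaks) and 156 of 196 lower (79.6%, against 83.9%) were called in the same direction with Smad4 on.

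Between Smad4-on lungs and pancreas 159 member peaks were called, 83 higher and 76 lower (27.8% of all peaks, 12.8% higher and 14.9% lower), and 10 loci (14% of all loci). The loci higher in the lungs were Wnt4 (1.09 ± 0.19), Wnt8b (1.00 ± 0.24), Dkk4 (34.8, 39.3 and 68.1 against 10.7, 22.3 and 15.3) and Rnf43 (1.23 ± 0.15, adjusted p = 0.000985), and those lower were Wnt3a, Wnt9a, Fzd8, Sfrp1, Lef1 and Tcf7l1, of which the Sfrp1 and Tcf7l1 calls were each lost in 10 or more of the fits that left out a sample. Rnf43 had 13 of its 15 peaks higher in the Smad4-on lungs against 2 with Smad4 off. Wnt4 had 10 of 16 against 1, Wnt7b 10 of 27 against 1 and Lrp5 7 of 14 against 1. Of the 83 peaks higher with Smad4 on, 13 had been called higher with Smad4 off, or 15.7% against 20.9% over all peaks, and of the 76 lower peaks 48 had been called lower, or 63.2% against 55.8%. Whether the lung and pancreas tumours responded differently to Smad4 was tested directly, as given after the restoration results.

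The next question was which Wnt loci changed when Smad4 was restored in each organ. In the pancreas 37 member peaks were called, 36 less open and 1 more open, which is 7.33% of the members against 3.42% of all peaks (3.06% less open and 0.364% more open). Less open peaks lay at Wnt4 (7), Lrp5 (5), Tcf7l2 (5), Rnf43 (4), Wnt7b (3), Fzd1 (2) and, with 1 each, Wnt5b, Wnt9b, Wnt16, Fzd2, Fzd5, Fzd9, Lrp6, Dkk3, Lef1 and Znrf3. By role they were 13 ligand, 11 receptor, 1 inhibitor, 6 nuclear factor and 5 feedback peaks. Their 36 windows held SMAD letters in 33.3% (12 windows), AP-1 letters in 13.9% (5) and KLF letters in 30.6% (11). The shares were 24.8%, 13.9% and 26.6% of all peaks that fell on restoration in the pancreas, and 30.5%, 28.3% and 24% of all 505 member windows.

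Wnt4 was the only member locus whose total fell (1 of 46, against 2.13% of all loci). Its total was 3522, 3808 and 3195 with Smad4 off and 1647, 1843 and 2319 with Smad4 on, without overlap, and fell by 0.87 on the log2 scale (SE 0.19, adjusted p = 0.0435). The start-site peak of Wnt4 held 929, 1098 and 864 with Smad4 off and 331, 350 and 413 with Smad4 on, and fell by 1.40 (SE 0.23, adjusted p = 0.0115). The peak next to it, 2.94 kb upstream (chr4:137273873-137275227), held 325, 347 and 306 against 108, 111 and 104 and fell by 1.58 (SE 0.28, adjusted p = 0.0163). A further 4 upstream peaks of this locus and 1 in an intron also fell, by 0.63 to 1.59. The Wnt4 locus total was no longer called when Smad4-off pancreas replicate 1 or 2 or Smad4-on pancreas replicate 1 or 2 was left out, whereas its direction stayed the same. In the liver the Wnt4 start-site peak held 2210 and 2206 with Smad4 off and 1525 and 1502 with Smad4 on (-0.54 ± 0.28, adjusted p = 0.452). The Wnt4 total there was 8116 and 8949 against 6334 and 6753 (-0.38 ± 0.23, adjusted p = 0.506). Both were lower without overlap, and neither was called.

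At Fzd5 an upstream peak 50.1 kb from the start site, inside Plekhm3 (chr1:64787261-64788369), held 646, 537 and 529 with Smad4 off and 240, 236 and 252 with Smad4 on (-1.22 ± 0.21, adjusted p = 0.0133). The Fzd5 start-site peak held 3758, 3688 and 3560 against 3515, 3129 and 3076 (-0.18, adjusted p = 0.26). A Wnt7b peak 32 kb upstream (chr15:85612917-85615935) held 1011, 889 and 782 against 452, 410 and 570 (-0.91 ± 0.16, adjusted p = 0.0149), while the Wnt7b start-site peak held 1165, 1132 and 985 against 1157, 1082 and 1085. At these genes the called regions were distal ones, and at Wnt4 they included the promoter.

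Rnf43, whose loss leaves more Frizzled at the cell surface, had 4 intronic peaks that fell, among them chr11:87696712-87697885 (410, 347 and 409 against 228, 198 and 279, -0.74 ± 0.20, adjusted p = 0.0708). Lrp5 had 5 intronic peaks that fell, the largest change being at chr19:3673929-3675056 (223, 396 and 288 against 128, 129 and 117, -1.24 ± 0.27, adjusted p = 0.0312). Tcf7l2 had 5 that fell by 0.74 to 0.91, for example chr19:55700081-55701625 (610, 649 and 632 against 364, 348 and 371, -0.80 ± 0.16, adjusted p = 0.0213). The groups did not overlap at any of these 3 peaks. The sole more open peak lay at the Lef1 promoter, 602 bp upstream of the nearest annotated start site (chr3:131111790-131112601), with 153, 126 and 137 against 266, 274 and 199 (0.81 ± 0.22, adjusted p = 0.0752), a call that was lost without any 1 of Smad4-off pancreas replicates 1 to 3, Smad4-on pancreas replicates 1 and 2 or Smad4-on lung replicate 2. A distal Lef1 peak 63.9 kb upstream (chr3:131046334-131046857) fell, from 40.1, 58.1 and 49.1 to 4.44, 18.6 and 9.2 (-2.27 ± 0.46, adjusted p = 0.0251).

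The size of the pancreas list rests on single mice. The count of 37 was 13 without Smad4-off pancreas replicate 1, 4 without replicate 2 and 12 without replicate 3, and 13 and 11 without Smad4-on pancreas replicate 1 and 2. The share of all peaks called fell in these fits too, to between 0.332% and 1.35%. The tumour epithelial markers also summed to less in the Smad4-on pancreas (21200 to 25263) than in the Smad4-off pancreas (28024 to 30788). Of these markers Sox9 (mean 3155 with Smad4 off, 3500 with Smad4 on) and Cldn4 (408 and 492) went the other way. The part of the markers in the result was not tested.

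In the liver 4 member peaks were called, 3 more open and 1 less open (0.792% of the members against 0.55% of all peaks, 0.462% more open and 0.0886% less open). A Dkk2 intron peak (chr3:132121527-132123404) held 116 and 117 with Smad4 off and 264 and 257 with Smad4 on, and rose by 1.15 ± 0.17 (adjusted p = 0.0263). A neighbouring Dkk2 peak (chr3:132124847-132126073) held 62.9 and 36.2 against 119 and 132 (1.37 ± 0.32, adjusted p = 0.0961). A Tcf7l2 peak 29 kb upstream (chr19:55711190-55714442) held 644 and 570 against 1044 and 973 (0.73 ± 0.15, adjusted p = 0.0643). A Wnt5b intron peak (chr6:119526430-119527127) held 254 and 139 against 40.8 and 44.7 (-2.12 ± 0.44, adjusted p = 0.0707). The Wnt5b call was lost in 8 of the fits that left out a sample, without Smad4-off liver replicate 1 or Smad4-on liver replicate 1 and without 6 of the pancreas and lung samples, and the Tcf7l2 call in 4.

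The Dkk2 locus was the only member locus called in the liver (1 of 46, against 0.0562% of all loci), with 727 and 653 against 1188 and 1507 (0.96 ± 0.16, adjusted p = 0.0802), and restored livers still lay below every pancreas and lung sample. The call was lost with the replicate block and in 12 of the fits that left out a sample. The count of 4 peaks was 0 without Smad4-off liver replicate 1 or Smad4-on liver replicate 1, 13 without Smad4-on liver replicate 2 or Smad4-off lung replicate 1, 14 without Smad4-off lung replicate 2, and 11 with replicate number as a block in the lungs, since all groups share an estimate of the spread.

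In the lungs 0 member peaks and 0 member loci were called by limma, against 0.00366% of all peaks and 0.0112% of all loci. By direction the peak shares were 0.00146% more open and 0.0022% less open. At an unadjusted p under 0.05 there were 58 member peaks (7.11% of all peaks) and 7 member loci (6.43% of all loci). DESeq2 called 11 member peaks, with 0.73% of all peaks called, and edgeR 0, with 0.00293%. At the Wnt4 promoter the lungs held 587, 1371 and 1199 with Smad4 off and 868, 1234 and 1168 with Smad4 on (0.12, adjusted p = 0.967), so that the groups overlapped. The Dkk2 intron peak that rose in the liver held 507, 412 and 560 against 575, 609 and 681 in the lungs, where the groups did not overlap, and the pancreas held 484, 542 and 522 against 588, 635 and 732.

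When the effect was averaged over the 3 organs, 35 member peaks were called, 18 more open and 17 less open (6.62% of all peaks, 3.61% more open and 3% less open), and 2 loci, Wnt2 (0.72 ± 0.23, adjusted p = 0.0946) and Sfrp5 (0.76 ± 0.17, adjusted p = 0.0308), both higher (1.51% of all loci). The Wnt2 call was lost within 50 kb (0.31) and in 12 of the fits that left out a sample, and the Sfrp5 call without Smad4-on liver replicate 1 (0.69). Of the 61 peaks of secreted inhibitors 9 rose and 0 fell, of which 6 were at Dkk2 and 1 each at Dkk3, Sfrp1 and Sfrp5. Receptors had 1 that rose and 8 that fell of 106, and ligands 7 and 7 of 184. Of the Wnt4 peaks 5 fell, of the Lrp6 peaks 3 (2 without Smad4-off lung replicate 1), of the Fzd1 peaks 3, and of the Wnt5a and Wnt8b peaks 2 each rose.

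Peaks were named for the averaged effect only where Smad4-on and Smad4-off samples did not overlap in any organ. Among those that rose, the Dkk2 peak at chr3:132121527-132123404 had the smallest p (0.61 ± 0.09, adjusted p = 0.00302). Its difference was 0.57 and not called without Smad4-off lung replicate 2. A Fzd5 peak inside Plekhm3 (chr1:64813862-64814402) rose by 1.04 ± 0.22 (adjusted p = 0.0155), with 35.9, 55.4 and 38 against 85.3, 61.9 and 93.5 in the pancreas, 18.5 and 43.2 against 59.4 and 64 in the liver, and 49.7, 28.3 and 40.5 against 118, 59.4 and 88.6 in the lungs. It lies 76.4 kb upstream, and its direction is opposite to that of the Fzd5 peak 50.1 kb upstream, which fell in the pancreas. A Wnt8b peak 31.1 kb upstream (chr19:44462173-44462525) held 7.61 to 19.7 with Smad4 off and 10.3 to 49.8 with Smad4 on in the pancreas and lungs, and 0 and 2.79 against 8.15 and 11.2 in the liver (1.60 ± 0.35, adjusted p = 0.0189).

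Wnt5b, a ligand close to Wnt5a, lost accessibility at an intron peak 8.31 kb downstream of its start (chr6:119535354-119536667), the last window printed above. It held 263, 364 and 241 against 151, 102 and 169 in the pancreas, 347 and 227 against 165 and 184 in the liver, and 212, 346 and 309 against 164, 136 and 139 in the lungs, and fell by 0.89 (SE 0.15, adjusted p = 0.00711). An Lrp6 peak 31.1 kb upstream (chr6:134597700-134598250) held 22.2, 39.3 and 24.1 against 8.89, 12.4 and 10.7 in the pancreas, 120 and 103 against 36.1 and 43.7 in the liver, and 28.5, 60.9 and 41.4 against 19.1, 16.3 and 16.8 in the lungs. It fell by 1.33 (SE 0.21, adjusted p = 0.00446), and by 1.42 without Smad4-off lung replicate 1. In both cases each organ showed the fall without overlap, as was required of every peak named for the averaged effect. The averaged count was 53 without Smad4-off lung replicate 1 and 23 without Smad4-off liver replicate 1.

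**Figure D4:**
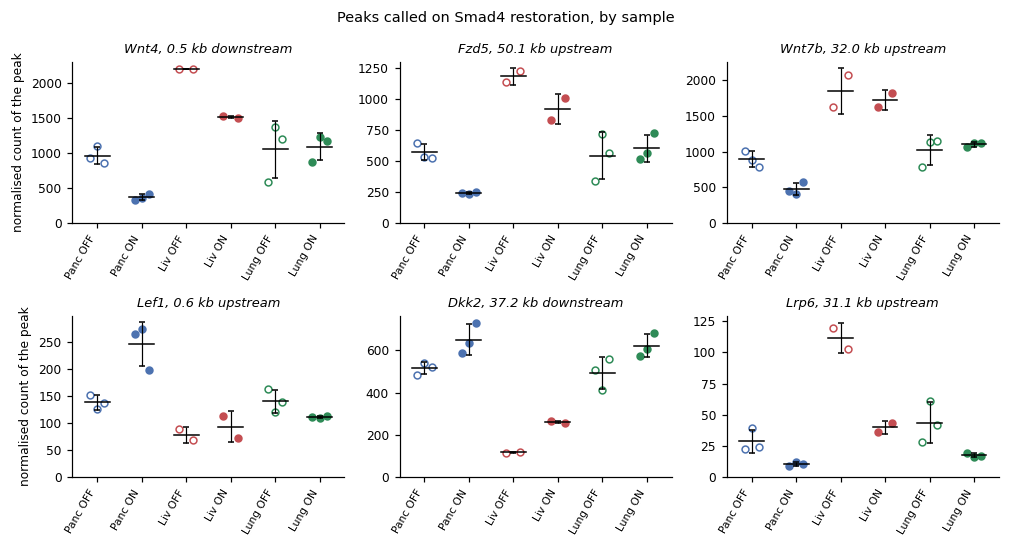
Normalised count (y axis, linear) of 6 peaks in each sample of the 6 groups (x axis), with open points for Smad4 off, filled points for Smad4 on and black lines for the mean ± SD. The Wnt4, Fzd5 and Wnt7b peaks fall in the pancreas and overlap between states in the lungs, and the Lef1 peak rises in the pancreas. The Wnt4 peak is also lower without overlap in the Smad4-on livers, a difference that was not called. The Dkk2 and Lrp6 peaks rise and fall in all 3 organs, as the rule for naming them required.

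Whether restoration acted differently between organs was tested as the difference of the effects. For each pair of organs 0 member peaks were called by limma, against 0% of all peaks. At an unadjusted p under 0.05 the effects of 29 member peaks differed between liver and lungs (5.25% of all peaks), of 30 between liver and pancreas (3.95%) and of 96 between lungs and pancreas (11%). DESeq2 called 0, 0 and 31 member peaks, the last with 1.65% of all peaks called. The effect at the Wnt4 promoter differed by 1.52 between lungs and pancreas (adjusted p = 0.231), at the Fzd5 peak inside Plekhm3 that fell in the pancreas by 1.42 (adjusted p = 0.229), at the Wnt7b peak 32 kb upstream by 1.04 (adjusted p = 0.231), and at the Lef1 promoter peak by -1.13 (adjusted p = 0.255). Without Smad4-off lung replicate 2 the same test without a block called 40 member peaks for lungs minus pancreas (2.93% of all peaks), and the Wnt4 promoter had an adjusted p of 0.0304. Without Smad4-off lung replicate 1 its effect differed by 1.15 (adjusted p = 0.277). Whether the organs responded differently therefore rests on single lung samples in this test.

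Same-numbered samples deviated together in the lungs, although the sample titles do not state that they were paired. A block of replicate number there was added after this was seen. With it 24 member peaks were called for lungs minus pancreas, while 1.75% of all peaks were called (1.27% with the higher effect in the lungs and 0.475% with the lower). Of the 24, 23 had the higher effect in the lungs, at Wnt7b (6), Tcf7l2 (4), Wnt4 (3), Fzd5 (2), Rnf43 (2) and, with 1 each, Wnt5b, Wnt11, Wnt16, Fzd1, Fzd2 and Lrp5. The Wnt4 promoter (adjusted p = 0.0155), the Fzd5 peak (0.0235) and the Wnt7b peak (0.0466) were among them. The remaining peak was an Lrp6 peak on the chromosome 6 stretch where Smad4-off lung replicate 1 stood apart, and this fit was not repeated without that sample.

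Other genes of the pathway, from a list of 42 of which 40 had 446 peaks, were counted in the same way. Between Smad4-off liver and lung metastases 82 of their peaks were higher and 140 lower (49.8%, against 49.7% of all peaks). Of their 40 loci 5 were higher and 6 lower, where 32.2% of all loci were called (20.4% higher and 11.8% lower). The R-spondin genes Rspo2 (-2.86 ± 0.39, adjusted p = 0.000103) and Rspo3 (-1.80 ± 0.41, adjusted p = 0.00239), the R-spondin receptor Lgr6 (-1.51 ± 0.20) and the target Tnfrsf19 (-1.40 ± 0.20) were lower in total, as were Nkd1 and Sp5. Porcn, the enzyme that lipidates Wnt ligands (0.70 ± 0.11, adjusted p = 0.000248), was higher, as were Ptk7, Kremen2, Nkd2 and Tle2. On restoration in the pancreas 0 of the 446 rose and 11 fell (2.47%, against 3.42% of all peaks and 7.33% of the member peaks). In the liver 7 rose and 1 fell (1.79%, against 0.55% of all peaks and 0.792% of the member peaks). In the lungs limma called 0 of them (0.00366% of all peaks), and averaged over organs 16 rose and 10 fell (5.83%, against 6.62% of all peaks).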

How the data were processed

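ATAC-seq (150 bp reads) covered 16 bulk samples of sorted tumour cells in 6 groups, which were taken from the sample titles together with the replicate numbers. An allele that all lines carry is not reported here. The members and gene lists were chosen with earlier results of these data known. The deposited unit is a signal: read counts in each peak, normalised by the authors. According to the methods they trimmed reads with Trim Galore and cutadapt, checked them with FastQC 0.11.5, mapped them with Bowtie2 to mm10, used MACS2 for peak calling (p of at most 0.001), removed blacklisted regions, merged peaks within 500 bp, counted reads with featureCounts and divided by DESeq2 size factors. Such factors assume that most peaks stay level between samples. Whether read ends were shifted or PCR duplicates removed is not given in the sources used here. The lung columns name day 15 of withdrawal where the labels give 14 days.

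All values (100%) were whole multiples of the worth of 1 read within 0.01, so that reads were recovered for the count tests. Mitochondrial reads (1 row of 136631, 1.43 to 3.56% of reads) were left out. limma 3.58.1 (R 4.3.3, trend and robust) was fitted to log2(value + 1) with 6 group means over all 16 samples, which understates the change of peaks with low values, and Benjamini-Hochberg adjusted p-values were taken over 136630 peaks. Locus totals are the summed values of a gene's peaks, tested over 17794 genes. Calls needed an absolute log2 difference of 0.58 and an adjusted p of 0.1, the thresholds of the study. The p-values measure the spread between these samples. Start sites came from GENCODE vM21 basic. Named peaks, at most 1 for each gene and direction, are those called without overlap of replicates, the 4 largest differences in each direction between organs and the 3 smallest p on restoration, with a fixed list of start-site peaks. For the averaged effect, replicates had to lie apart in the same direction in every organ. Other peaks and loci were named after their values were seen, as examples of the counts.

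Each result was recomputed with a pseudocount of 10, a mean of at least 20, TMM factors, quantile normalisation, thresholds of 1 and 0.05, only the groups compared, GC correction, a 50 kb limit, edgeR 4.0.16 and DESeq2 1.42.0 on recovered reads, each sample left out, and the replicate number as a block. Same-numbered samples with Smad4 off and on had correlated deviations from their group means in the lungs (0.491, 0.124 and 0.214), but not in the pancreas (-0.33, 0.0271 and -0.33) or the liver (0.0834), and a block in the lungs only was added after seeing the data. The fit was tested on simulated data.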

Additional observations from a re-analysis of the deposited data

How the results depend on the processing

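With 2 or 3 mice per group the counts of calls depend on single samples, most of all on restoration, and 39 to 84 reads per member peak limit what can be seen at weak peaks. Of 23 counts of calls under all alternatives, 514 values stayed within 1.5 times the main count and 86 did not. For 148 single peaks and loci, 3403 values kept direction and call, 164 kept the direction and lost the call, and 2 turned, both for Wnt2 with start sites within 50 kb (0.10 for Smad4-off liver against pancreas and 0.57 for Smad4-on liver against pancreas), since the limit leaves out its peak at 51.7 kb. The cause of the other changes was not tested. Most counts from alternative fits, above and below, are given without the share of all peaks or loci called in that fit. They therefore do not show whether the members moved apart from the rest.

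With thresholds of 1 and 0.05 the member peaks called were 62 for Smad4-off lungs against pancreas, 113 for Smad4-on liver against lungs, 101 for Smad4-on lungs against pancreas, 10 for restoration in the pancreas, 1 in the liver and 11 averaged. For restoration in the liver the 4 peaks became 1 with quantile normalisation, 1 with only the groups compared, 2 with edgeR and 13 with DESeq2. DESeq2 called 11 in the lungs and 31 for lungs minus pancreas. Within 50 kb the averaged effect had 23 peaks and 1 locus. Restoration in the pancreas had 2 loci with quantile normalisation, 2 within 50 kb and 2 with either block.

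The replicate number as a block in all organs gave 2 peaks and 0 loci for restoration in the liver and 6 peaks for lungs minus pancreas, and with GC correction 0 and 4. The same block restricted to the lungs, where same-numbered samples deviated together, gave 11 and 24, and with GC correction 7 and 22. The sample titles do not state that same-numbered mice were paired. Beside these and the 2 loci for restoration in the pancreas, where the main count is 1, the block moved no count by more than 1.5 times.

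Leaving out each sample in turn gave the following lowest and highest counts of member peaks between organs. With Smad4 off they were 188 to 271 for liver against lungs, 244 to 317 for liver against pancreas and 58 to 115 for lungs against pancreas. With Smad4 on they were 68 to 188, 192 to 300 and 111 to 189. On restoration they were 4 to 46 in the pancreas, 0 to 14 in the liver, 0 to 1 in the lungs (1 without Smad4-off lung replicate 3), 23 to 53 averaged, 0 to 40 for lungs minus pancreas and 0 for the other pairs. Loci ranged from 16 to 19, 17 to 18 and 2 to 8 with Smad4 off, from 4 to 17, 13 to 22 and 8 to 11 with Smad4 on, and on restoration from 0 to 3 in the pancreas (3 without Smad4-on pancreas replicate 3), 0 to 1 in the liver, 0 to 1 in the lungs and 1 to 3 averaged.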
